A study of Mus musculus with 15 samples.

Results

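The genes described here encode the proteins of the cytosolic ribosome in mouse liver. They were chosen by symbol: every row whose name begins with Rpl, Rps, Rplp or Rpsp followed by a digit, without rows marked as pseudogenes (-ps) and without the Rps6k kinases. Of the 24411 gene rows, 87 met this rule, 83 had at least 10 counts over the 15 libraries, and 80 passed the filter on low counts and were tested. The 87 comprise 76 core proteins (30 of the small subunit, 43 of the large subunit and 3 of the stalk), 9 paralogs of core proteins, and 2 rows that only share the name, the Rps19-binding protein gene Rps19bp1 and Rpl37rt, annotated as a transcribed processed pseudogene. Rps4l, counted here among the paralogs, carries the same annotation as Rpl37rt. The rule itself used no measured value apart from the minimum of 10 counts. The family was, however, chosen with earlier results of these data known.

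Poly(A) RNA of whole liver was sequenced in 4 libraries labelled TdTomato, 6 labelled LATS KO (LATS_KO here) and 5 labelled Yap OE (YAP_OE here). The series describes these as wild type, Lats knockout and Yap overexpression, and its title concerns monocytes and proliferation driven by YAP. LATS1 and LATS2 are Hippo pathway kinases that hold back the coactivator YAP, and TdTomato is a red fluorescent protein used as a control. The labels name no Cre, promoter, vector, age, sex, diet or time point for these groups, and the genotype and treatment fields repeat the titles. Whether replicates are different animals is not stated, and p-values therefore measure only the spread between libraries, which may be technical.

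A ribosome joins a small subunit, which reads the mRNA, to a large subunit, which forms the peptide bond. Each is a core of ribosomal RNA covered by proteins that are mostly needed in equal numbers, and the stalk of the large subunit, made of Rplp0, Rplp1 and Rplp2, recruits elongation factors. Many mRNAs of ribosomal proteins begin with a C followed by a run of pyrimidines, the terminal oligopyrimidine (TOP) tract, through which mTOR and Larp1 control their translation. Hepatocytes, which export large amounts of plasma protein, hold many ribosomes, and growth programmes driven by Myc raise ribosome production in many cell types.

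Start regions were taken from RefSeq (GRCm38.p6), which held a window for 66 of the genes. A tract was searched on the strand of the gene as a C followed by at least 4 bases that were each C or T, with the C at most 5 bases from the annotated start. It was found for 30 of 66 genes (45.5%), for 27 of 56 core genes (48.2%), for 17 of 69 mitochondrial ribosomal protein genes (24.6%) and for 5688 of 26959 other genes (21.1%). The windows below span 20 bases on each side of the start. They are shown for core genes with a long and a short tract, and for the paralogs on which the comparisons turn. Capitals mark the tract, and a window without capitals holds no match.
Rpl13a, chr7:45128726-45128765, minus strand: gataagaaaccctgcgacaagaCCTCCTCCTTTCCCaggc
Rps2, chr17:24720043-24720082, plus strand: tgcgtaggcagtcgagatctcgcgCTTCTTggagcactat
Rpl22l1, chr3:28805488-28805527, plus strand: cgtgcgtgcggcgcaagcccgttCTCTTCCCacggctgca
Rpl7l1, chr17:46782637-46782676, minus strand: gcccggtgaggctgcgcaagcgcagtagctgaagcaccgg
Rpl36al, chr12:69184048-69184087, minus strand: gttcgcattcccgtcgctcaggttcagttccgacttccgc
The tract was 14 bases long in Rpl13a, 8 in the paralog gene Rpl22l1 and 6 in Rps2, and no match was found in these windows of Rpl7l1 and Rpl36al.

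The libraries held 6166680 to 28225360 gene counts each. TdTomato 1 and LATS_KO 3 stood apart, with 78.5% and 89.9% of their reads unmapped and 8501 and 9710 genes detected, so a reduced set of 13 libraries without both of them was also fitted, and its values stand beside the results that it changed. Yap1 lay between 94.9 and 115 CPM (reads of a gene relative to the TMM-scaled library size) in TdTomato and between 146 and 212 CPM in YAP_OE. Lats1 ranged from 0 to 46.0 CPM in TdTomato and from 0 to 27.4 CPM in LATS_KO, and was lower in LATS_KO only in the reduced set (log2 −1.10, adjusted p = 0.025, against −0.94 and 0.62 with all libraries). Lats2 ranged from 0 to 19.6 CPM and from 7.67 to 41.0 CPM, and stood higher in all YAP_OE libraries, at 48.8 to 62.2 CPM. Counts over a whole gene do not check the deletion of a part of it. The 14 hepatocyte markers found, none at 0 throughout TdTomato, summed to 110207 to 183943 CPM in TdTomato, 43419 to 191294 CPM in LATS_KO and 81319 to 140790 CPM in YAP_OE.

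Ribosomal protein genes took 2.61%, 1.26%, 1.09% and 1.76% of the gene counts of TdTomato 1 to 4. In LATS_KO the share ran from 1.32% to 4.63% with a median of 1.83%, and LATS_KO 3 held the highest value. In YAP_OE 1 to 5 it was 2.14%, 1.93%, 1.86%, 2.36% and 2.96%. The mean was 1.68 ± 0.683% in TdTomato (SD, n = 4), 2.16 ± 1.24% in LATS_KO (n = 6) and 2.25 ± 0.442% in YAP_OE (n = 5), and all 3 groups overlapped. Without TdTomato 1, the TdTomato mean was 1.37%, and the 3 remaining controls lay below every YAP_OE library. With the 10 most abundant genes of each library left out, those 3 controls held 1.60%, 1.37% and 2.25%, still below the 2.30% to 4.22% of YAP_OE. On the TMM scale the summed core genes of TdTomato 2 to 4 (13403 to 22677 CPM) and of YAP_OE (14276 to 28509 CPM) overlapped. The TMM factors were 0.759 to 0.956 in TdTomato and 1.02 to 1.29 in YAP_OE. In whole liver, fewer cells of a type and less RNA per cell cannot be told apart.

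**Figure D1:**
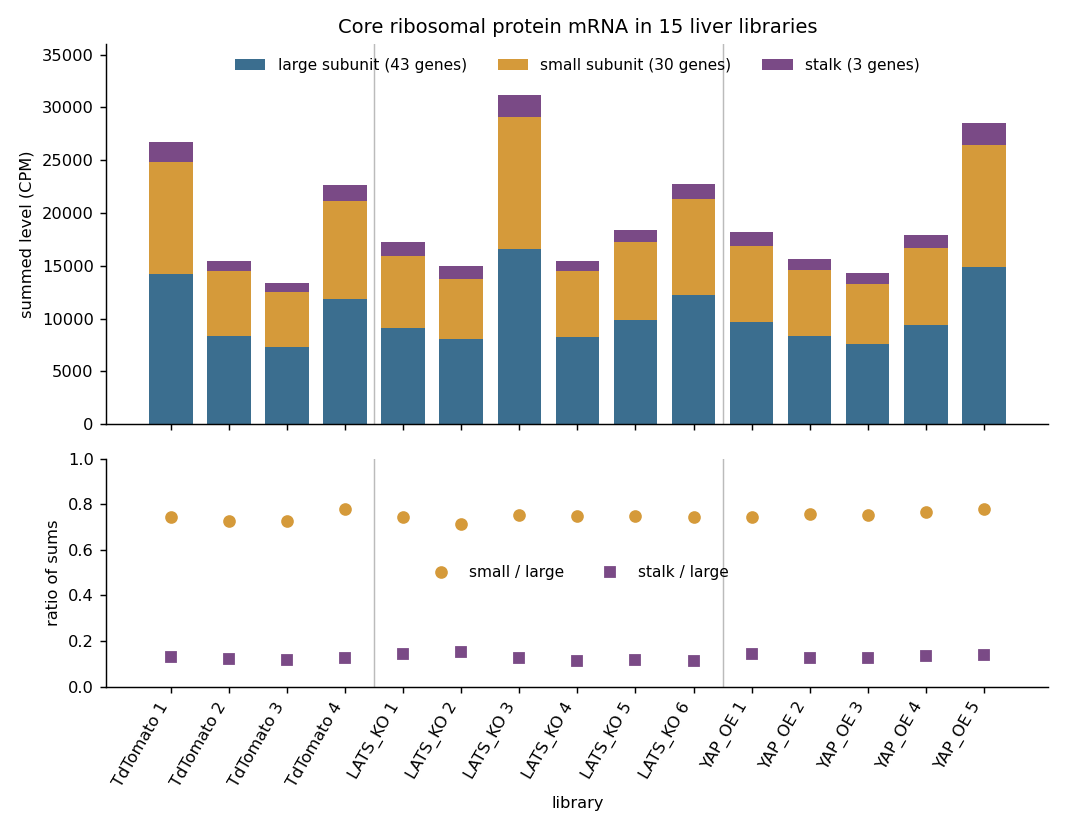
Upper panel, summed level of the core ribosomal protein genes in each of the 15 libraries (CPM, stacked by subunit, 1 bar per library); lower panel, the small-subunit and stalk sums divided by the large-subunit sum. The totals run from 13403 to 31152 CPM, while the ratio of small to large subunit stays between 0.714 and 0.781.

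The sums of the small and large subunits followed each other from library to library. Summed over 30 genes, the small subunit stood at 5278 to 10611 CPM in TdTomato, 5732 to 12460 CPM in LATS_KO and 5711 to 11608 CPM in YAP_OE. The large subunit, over 43 genes, stood at 7271 to 14237, 8024 to 16584 and 7604 to 14866 CPM in the same groups. The ratio of small to large was 0.745 ± 0.0255 in TdTomato (SD, n = 4), 0.741 ± 0.0134 in LATS_KO (n = 6) and 0.760 ± 0.0145 in YAP_OE (n = 5), and the groups overlapped. The 3 stalk genes gave 0.123 ± 0.00564, 0.127 ± 0.0165 and 0.133 ± 0.00656 of the large-subunit sum, again with overlap. Since the sums are counts, these ratios are not ratios of molecules.

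Single libraries set most of the spread within a group. Over 72 core genes (the 73 tested, without Rpl34 and its low counts), YAP_OE 5 was the highest of the 5 YAP_OE libraries for 72 of 72 genes, with a median of 0.72 log2 units over the median of the 15 libraries. It was the highest library for 33.1% of all genes tested. YAP_OE 3 was the lowest for 68 of the 72 genes and for 25.1% of all genes. In TdTomato the highest library was TdTomato 1 for 40 genes and TdTomato 4 for 32, and TdTomato 3 was the lowest for 62. Over all genes tested, TdTomato 1 was the highest for 21.9% and the lowest for 69.9%, TdTomato 4 the highest for 23.9% and TdTomato 3 the lowest for 14.1%. In LATS_KO the highest was LATS_KO 3 for 56 genes and LATS_KO 6 for 15, against 20.8% and 20.6% of all genes, and LATS_KO 3 was the lowest for 50.4% of all genes. Counts of the ribosomal RNA precursor row Rn45s differed between libraries too, at 75317 CPM in YAP_OE 5 against 1248 to 35617 CPM in the other YAP_OE libraries, and reads outside annotated genes made up 14.9% of mapped reads in YAP_OE 5 against 6.11% to 10.8% there. In TdTomato both were highest in TdTomato 1, at 36314 CPM and 14.3%, where the core genes had a median deviation of 0.50. In LATS_KO both were highest in LATS_KO 5, at 192355 CPM and 25.8%, with a median deviation of 0.05. LATS_KO 6 had 104851 CPM, 20.8% and 0.39, and LATS_KO 4 had 48068 CPM, 17.2% and −0.21. LATS_KO 3 had the largest median deviation of that group, 0.88, at 14622 CPM and 17.96%. Whether Rn45s or reads outside annotated genes bear on the ribosomal protein level was not tested.

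**Figure D2:**
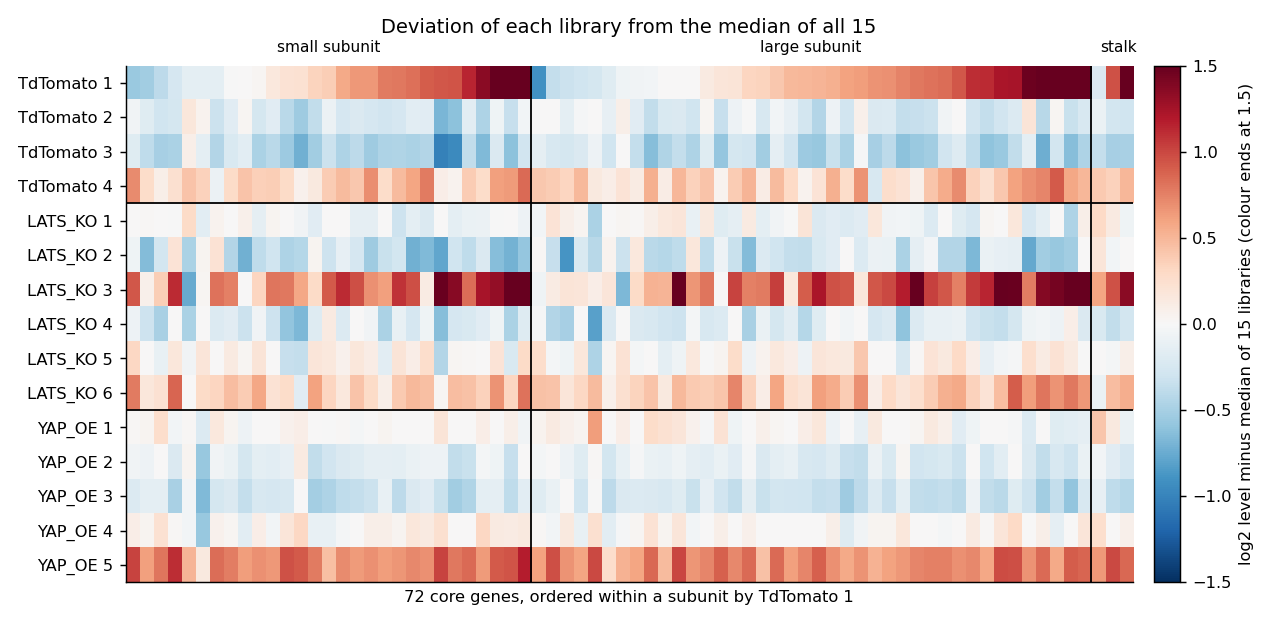
Deviation of 72 core genes (columns, ordered within each subunit by their value in TdTomato 1) from their median over the 15 libraries, in log2 units (red higher, blue lower), for each library (rows). YAP_OE 5 is red throughout with little spread between genes (SD 0.186), while TdTomato 1 and LATS_KO 3 mix genes far above that median with genes below it (SD 0.677 and 0.555).

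The evenness of these shifts differed. In YAP_OE 5 the genes spread around their common shift with an SD of 0.186 log2 units, and in the 12 libraries other than TdTomato 1, LATS_KO 3 and YAP_OE 5 the SD ran from 0.127 to 0.264. In TdTomato 1 it was 0.677 and in LATS_KO 3 it was 0.555, so there the genes moved less evenly. The same SD over all genes was 1.94 and 1.73 in these libraries and 0.616 to 1.06 in the others. Rpl36a, a large-subunit protein gene on the X chromosome, stood highest in TdTomato 1 at 2.21 log2 units over its median, and Rpl28 lowest at −0.91. In LATS_KO 3 the highest was Rpl37a at 2.07. Genes with transcripts of at most 600 bases, a limit chosen after the values were seen, had a median deviation of 0.92 in TdTomato 1 (24 genes) against 0.34 for the 48 longer ones, and of 1.01 against 0.80 in LATS_KO 3. The mapping of these libraries was not tested as a source of that pattern.

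Within the 13 other libraries the make-up of the family was steady. The share of a core gene in the summed core counts varied with a coefficient of variation between 4.26% for Rpl14 and 24.6% for Rpl29. Rpl14 took 1.23% to 1.45% of that sum in every one of those libraries. Rps12, Rps19 and Rps2 followed Rpl29, with coefficients of 22.9%, 22.3% and 20.6%. These 4 were the most variable of the 72.

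Per kilobase of transcript, the highest levels in TdTomato belonged to Rplp1 of the stalk at 1091 ± 516 CPM per kb (SD, n = 4), Rpl41, the smallest protein of the large subunit, at 970 ± 711, and Rps2, which lines the mRNA entry side of the small subunit, at 743 ± 126. Rps14 at 707 ± 312 and Rps18 at 701 ± 287 came next. The ranges of mean and SD of these 5 overlapped, and without TdTomato 1 Rps2 (773) stood ahead of Rpl41 (649). At the lower end, Rps20 stood at 58.8 ± 36.2 CPM per kb, for an annotated transcript of 3706 bases that is long for this family. Rps4l at 31.3 ± 6.19, Rps19bp1 at 19.2 ± 9.13, Rpl37rt at 15.4 ± 11.2 and Rpl34 at 6.94 ± 11 were lower still.

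Several core genes were almost empty. The row of Rpl26, a large-subunit protein of the exit tunnel, had 0 counts in all 15 libraries, which allows this row at most 0.00948 CPM over the pooled libraries (3 counts, counting error only). The annotation used for counting is not given in the sources used here, so this limits the row and not the level of the gene. Rpl30 had 40 counts, Rps27 had 83 and Rpl34 had 408, of which 145 fell in TdTomato 1. Reads that mapped to several places were not counted, and these genes share sequence with other rows: 71.3% of the 50-base runs of Rpl26 transcripts occurred in transcripts of 12 other genes, 47.8% of Rpl30, 98.6% of Rps27 and 50.6% of Rpl34. Rpl10 shared 92.1% and stood at 394 ± 32.7 CPM in TdTomato (SD, n = 4). The part of sharing in these levels was not tested, and levels of highly shared members are uncertain. The paralog rows Rpl10l and Rps27rt also had 0 counts, Rpl3l had 6 and Rpl39l had 11.

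The first comparison asked how the family differed between LATS_KO and TdTomato. Few ribosomal protein genes differed: of 80 tested, 0 were higher and 1 was lower (edgeR quasi-likelihood test, Benjamini-Hochberg over 13055 genes), where 1311 of all 13055 genes (10%) were called higher and 0.973% lower. At an unadjusted p under 0.05 the counts were 0 higher and 1 lower, where 25.3% of all genes passed in either direction. DESeq2 called 0 higher and 1 lower, against 19.6% and 2.78% of all genes to which it gave an adjusted p. The voom fit with quality weights called 2 higher (Rpl34, Rps20) and 2 lower, against 16.2% and 10.7%. In the reduced set the counts were 0 higher and 1 lower, against 13.7% and 3.24% of all genes.

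The median log2 fold change of the 80 genes was 0.05, against 0.13 over all genes tested, and 47 of 80 were positive. For 75 of the 80 the change was under 0.5 log2 units in size, as for 47.9% of all genes. The 95% interval lay inside a 2-fold change in either direction for 60 of 80, and for 75 of 80 in the reduced set, against 24.6% and 43.8% of all genes. Small-subunit genes had a median of 0.08 (18 of 29 positive), large-subunit genes 0.05 (25 of 41) and stalk genes 0.00 (2 of 3). With library totals in place of TMM factors, the all-gene median moved to 0.46 and that of the family to 0.40, so the family lay at −0.06 relative to all genes, as against −0.09 with TMM.

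Rpl7l1 (chromosome 17, 46773907 to 46782672, mm10) was the only member called. It is a paralog of Rpl7 related to Rlp7, a yeast factor that helps to mature the large subunit. It stood at 101, 99.1, 80.8 and 111 CPM in TdTomato 1 to 4. In LATS_KO it ran from 46.4 to 77.0 CPM with a median of 67.5, so every LATS_KO library lay below every control. Such a lack of overlap held for 1 of the 80 members and for 1.90% of all genes. In the other direction it held for 0 members and 6.65% of all genes. Rpl7l1 fell by 0.58 on the log2 scale, with an SE of 0.17 and a 95% interval of −0.93 to −0.22 (adjusted p = 0.037). The adjusted p was 0.045 in the reduced set, and the call was lost in 10 of 15 fits that left out 1 library: TdTomato 1, 2 or 4, LATS_KO 1, 2 or 4, or YAP_OE 1, 2, 3 or 4, with adjusted p up to 0.12.

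The largest other differences did not pass the test. Rps29, a zinc-binding protein of the small-subunit head, had 131, 131, 112 and 185 CPM in the 4 controls against 155 to 341 CPM in LATS_KO (median 178; log2 0.63 ± 0.33, SE; adjusted p = 0.26). Rps4x, the X-linked core protein of the small subunit, gave 306 ± 33.3 CPM (SD, n = 4) against 428 ± 114 CPM (n = 6; log2 0.48, adjusted p = 0.26). Rpl34 gave −1.71 (adjusted p = 0.29) and Rpl37rt −1.0 (adjusted p = 0.35). The Rpl34 value rested on TdTomato 1 at 11.2 CPM, since TdTomato 2 to 4 held 0.331 to 0.953 CPM, and in the reduced set it was 0.78 (adjusted p = 0.32).

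**Figure D3:**
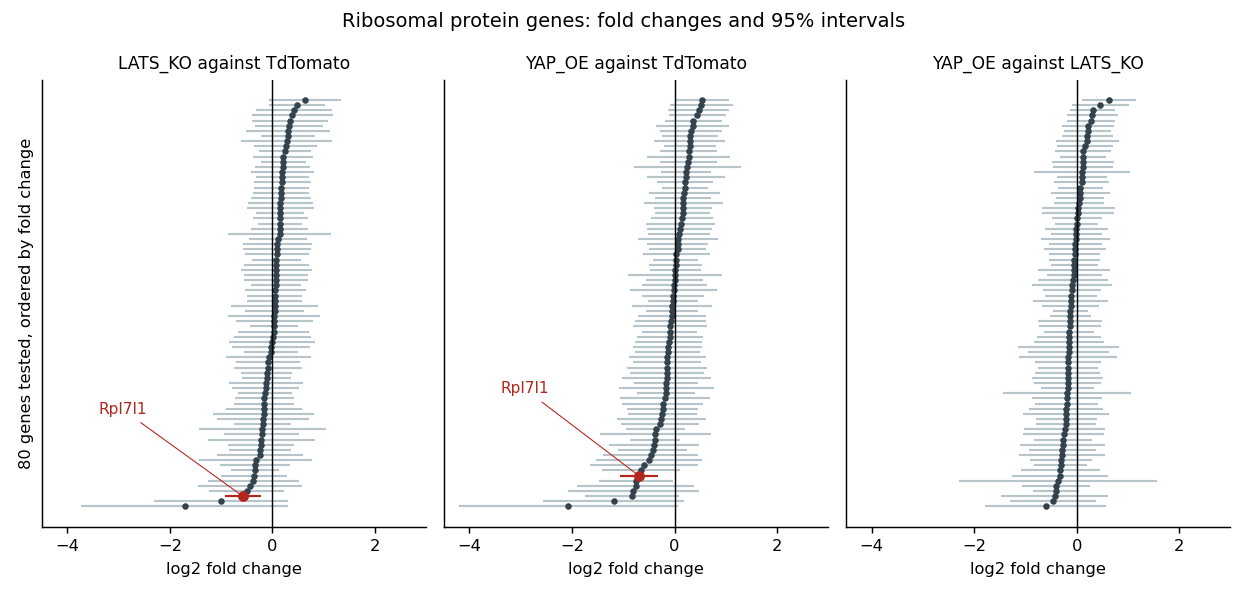
Log2 fold change (points) and 95% interval (lines) of the 80 ribosomal protein genes tested, ordered by fold change in each of the 3 comparisons; red marks genes with an adjusted p under 0.05. Rpl7l1 is the only red point against TdTomato in either group, and YAP_OE against LATS_KO has none.

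The second comparison set YAP_OE against the same 4 TdTomato libraries, so it is not independent of the first. Of 80 genes, 0 were higher and 1 was lower, where 17.9% of all genes were called higher and 10.8% lower. At an unadjusted p under 0.05, 1 was higher and 2 were lower, where 39.6% of all genes passed in either direction. DESeq2 called 1 higher (Rps16) and 1 lower, against 27.2% and 11.8% of all genes, and voom called 8 higher and 3 lower, against 36.0% and 32.0%. In the reduced set 1 was higher (Rps19) and 1 was lower, against 27.2% and 21.2% of all genes.

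The family median was −0.04 against 0.17 over all genes, and 36 of 80 were positive. In the reduced set it was 0.13 against 0.08 and 63 of 80 were positive, so the direction of the median turned with TdTomato 1 and LATS_KO 3. Changes under 0.5 log2 units made up 69 of 80, as for 35.7% of all genes. The 95% interval lay inside a 2-fold change for 53 of 80, and for 63 of 80 in the reduced set, against 17.6% and 32.5% of all genes. With library totals only, the all-gene median moved to 0.73 and the family median to 0.44 (69 of 80 positive), and 8 genes were called higher (Rps16, Rps7, Rpl28, Rpl29, Rpl21, Rpl10, Rpl31 and Rpl17), against 3265 of all 13055 genes (25%). Relative to all genes the family lay at −0.29 there and at −0.20 with TMM.

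Rpl7l1 was again the member called. It stood at 61.4, 60.4, 55.0, 60.8 and 64.4 CPM in YAP_OE 1 to 5, all below the lowest control at 80.8 CPM. Every YAP_OE library lay below every control for 1 of the 80 members and for 13.4% of all genes. All lay above for 0 members and 28.3% of all genes. Rpl7l1 fell by 0.70 on the log2 scale with an SE of 0.17 (95% interval −1.07 to −0.33, adjusted p = 0.0096), and was called in all 15 fits that left out 1 library, with adjusted p between 0.0052 and 0.034. With library totals only the change was −0.17 (adjusted p = 0.53), and with the summed core genes as library size it was −0.66 (adjusted p = 0.12). The ratio of Rpl7l1 to Rpl7, which needs no scaling between libraries, was 0.187, 0.281, 0.255 and 0.234 in TdTomato 1 to 4 and 0.109 to 0.174 in YAP_OE, with no overlap. In LATS_KO it was 0.139 to 0.187 with a median of 0.174, which met the value of TdTomato 1. Rpl7 itself, at 421 ± 104, 390 ± 58.9 and 407 ± 106 CPM (SD) in the 3 groups, passed no test.

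Rps19, a small-subunit protein known for its mutations in Diamond-Blackfan anaemia, was called only without TdTomato 1 and LATS_KO 3. TdTomato 1 to 4 held 158, 92.8, 81.7 and 141 CPM, and YAP_OE 1 to 5 held 145, 148, 135, 168 and 255 CPM. Its log2 fold change was 0.52 ± 0.29 (SE, adjusted p = 0.20) with all libraries and 0.69 ± 0.26 (adjusted p = 0.040) in the reduced set, where TdTomato 4 still lay above YAP_OE 3. Rps16, a protein of the small-subunit head, rose in the DESeq2 fit (0.67, adjusted p = 0.019) and not in edgeR (0.53 ± 0.25, adjusted p = 0.13). The most negative values were again those of Rpl34 (−2.07, adjusted p = 0.14) and Rpl37rt (−1.18, adjusted p = 0.19), and Rpl34 stood at 0.18 (adjusted p = 0.79) in the reduced set.

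Rps2 leaned the other way. It stood at 650, 746, 651 and 918 CPM in TdTomato 1 to 4, at 645 to 882 CPM in LATS_KO (median 738) and at 628, 488, 455, 487 and 800 CPM in YAP_OE 1 to 5. The change in YAP_OE was −0.38 ± 0.23 (SE, adjusted p = 0.24). Relative to the family's own total and in the reduced set, a scale added after the data were seen, it was −0.58 (adjusted p = 0.037), and Rps12 (0.61, adjusted p = 0.035), Rps19 (0.56, adjusted p = 0.029), Rpl36al (−0.68, adjusted p = 0.020) and Rpl7l1 (−0.79, adjusted p = 0.012) also passed there, where 19.6% of all genes were called higher and 19.5% lower.

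**Figure D4:**
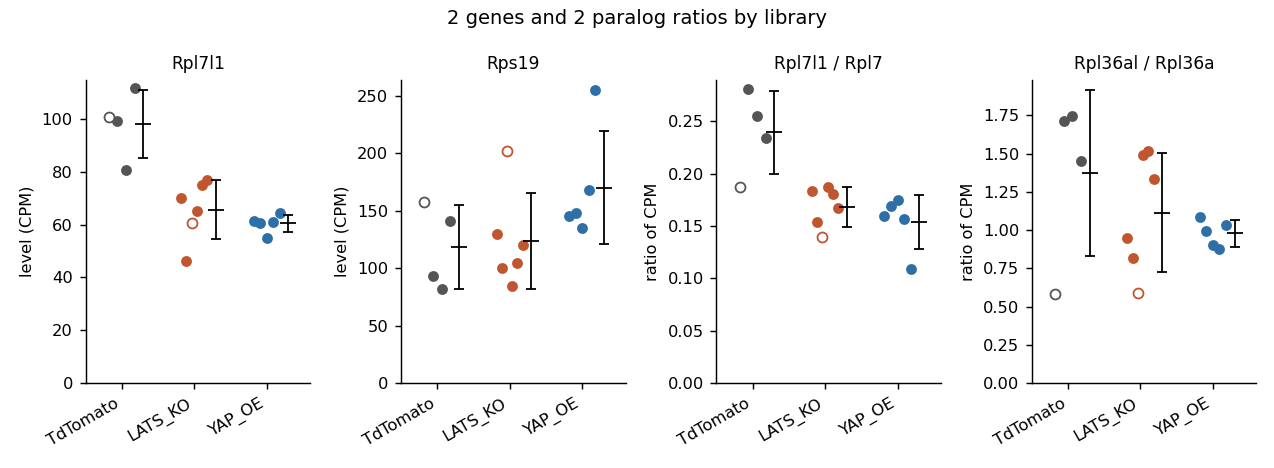
Level of Rpl7l1 and of Rps19 (CPM) and the ratios of Rpl7l1 to Rpl7 and of Rpl36al to Rpl36a in every library, by group; open circles are TdTomato 1 and LATS_KO 3, and bars give mean and SD. Rpl7l1 in TdTomato (80.8 to 111 CPM) lies above all LATS_KO and YAP_OE libraries, which overlap each other. In each of the other panels TdTomato overlaps at least 1 of the other groups.

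YAP_OE and LATS_KO were also compared directly. Of 80 members, 0 were higher and 0 were lower in the edgeR test, where 0.498% and 0.490% of all genes were called. At an unadjusted p under 0.05 the counts were 1 and 0, where 14.6% of all genes passed in either direction. DESeq2 called 0, against 3.27% and 2.76% of all genes, and voom called 2 higher (Rps19, Rpl29) and 7 lower, against 28.4% and 27.8%. In the reduced set the counts stayed at 0 and 0, against 5.56% and 7.17% of all genes. The family median was −0.12 against −0.03 over all genes, and 0.09 against −0.05 in the reduced set, so its sign rested on those 2 libraries.

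Rpl29, a large-subunit protein that also binds heparin, had the largest positive difference. It stood at 73.1 to 181 CPM in LATS_KO (median 95.7) and at 201, 131, 129, 153 and 258 CPM in YAP_OE 1 to 5 (log2 0.63 ± 0.25, SE; adjusted p = 0.24). Rps19 was at 84.4 to 202 CPM in LATS_KO (median 112), and without LATS_KO 3 its highest value there was 130 CPM, below every YAP_OE library (log2 0.66, adjusted p = 0.062 in the reduced set). In that set YAP_OE lay wholly above LATS_KO for 1 of the 80 members and for 6.03% of all genes. The most negative values were those of Rpl37a (−0.60, adjusted p = 0.73) and Rpl13a (−0.46, adjusted p = 0.71). They were −0.02 and −0.13 in the reduced set, and Rpl37a stood at 807 CPM in LATS_KO 3 against 133 to 331 CPM in the other LATS_KO libraries.

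The stalk proteins showed no difference past the test. Rplp0, which anchors the stalk, stood at 452, 491, 411 and 693 CPM in TdTomato 1 to 4, 450 to 795 CPM in LATS_KO (median 563) and 484 to 824 CPM in YAP_OE. Its 95% intervals were −0.32 to 0.71 for LATS_KO and −0.24 to 0.84 for YAP_OE against TdTomato. Rplp1 had 893, 378, 325 and 581 CPM in the 4 controls, 356 to 890 CPM in LATS_KO (median 475), and at 353 to 910 CPM in YAP_OE, with YAP_OE 5 highest. Rplp2 was at 246 ± 175, 217 ± 107 and 179 ± 70.9 CPM (SD) in the 3 groups. TdTomato 1 held the highest control value of Rplp1 and Rplp2, and TdTomato 4 that of Rplp0.

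Paralogs replace or accompany a core protein in some tissues. Of the 9, 5 were tested. Rpl36al (chromosome 12, 69182731 to 69184083) had 227, 122, 107 and 173 CPM in the 4 controls, 68.7 to 180 CPM in LATS_KO (median 118) and 83.3, 78.0, 64.2, 84.2 and 160 CPM in YAP_OE 1 to 5. Its change in YAP_OE was −0.74 ± 0.34 (SE, adjusted p = 0.11), and −1.01 (adjusted p = 0.036) without YAP_OE 5. With the summed core genes as library size in all 15 libraries, it was −0.71 (adjusted p = 0.041) and Rpl36al was the member called in place of Rpl7l1, where 4.98% of all genes were called lower. The ratio of Rpl36al to Rpl36a was 0.580, 1.71, 1.75 and 1.45 in TdTomato 1 to 4, 0.586 to 1.51 in LATS_KO (median 1.14) and 0.879 to 1.09 in YAP_OE. Without TdTomato 1, whose ratio was the lowest, the 3 other controls lay above every YAP_OE library.

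Rpl22l1, a paralog of the RNA-binding protein Rpl22, had 73.6, 43.7, 34.5 and 51.5 CPM in the 4 controls against 38.0 to 136 CPM in LATS_KO (median 56.0; log2 0.42 ± 0.35, SE; adjusted p = 0.50). Its ratio to Rpl22 was 0.341 ± 0.0645 in TdTomato (SD, n = 4), 0.472 ± 0.0748 in LATS_KO (n = 6) and 0.415 ± 0.0211 in YAP_OE (n = 5). TdTomato 2, at 0.421, overlapped both other groups. Rps27l, a target of p53, was at 138 ± 39.6, 117 ± 40.6 and 123 ± 31.3 CPM (SD) in the 3 groups. Rps4l, annotated as a transcribed processed pseudogene, stood at 24.7 ± 4.89, 25.4 ± 6.83 and 27.2 ± 8.82 CPM, near 0.0821, 0.0617 and 0.0654 of Rps4x, and passed no test.

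The 7 pseudogene rows of the family summed to between 1.43 and 10.5 CPM over the 15 libraries, and 0 of the 3 tested were called by edgeR.

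Genes that make, regulate or use ribosomes were examined beside the family, from lists chosen with earlier results of these data known. The shares of all genes given above for each comparison are the background of their counts. Of 49 assembly factors, 3 were higher and 0 lower in LATS_KO, with a median of 0.45 against 0.13 over all genes, and their share called lay below that of all genes (10%). These were Wdr43 (20.1 ± 3.08 CPM against 39.0 ± 9.99 CPM, SD), which acts on the small-subunit precursor, the box C/D protein Nop58 (22.5 ± 8.06 against 65.2 ± 39.6) and nucleolin, Ncl (203 ± 8.13 against 352 ± 111). In the reduced set only Wdr43 passed. In YAP_OE, Nop58 was higher (log2 1.45, adjusted p = 0.023), Nop16 was lower (−0.89, adjusted p = 0.030) and the median of the list was 0.19. There, 2 were higher and 6 lower in the reduced set, against 27.2% and 21.2% of all genes. Of 20 RNA polymerase I genes, 0 were called in LATS_KO and 1 in YAP_OE, the shared subunit Polr2e (log2 0.94, adjusted p = 0.031), with 6 higher in the reduced set, where 27.2% of all genes were called higher, and 1 higher in LATS_KO.

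Myc, which drives ribosome production in many cells, was at 5.88 ± 8.19 CPM in TdTomato (SD, n = 4), 55.6 ± 39.5 CPM in LATS_KO (n = 6) and 65.7 ± 8.65 CPM in YAP_OE (n = 5). It rose by 3.25 log2 units in LATS_KO (adjusted p = 0.041) and by 3.49 in YAP_OE (adjusted p = 0.017). Its relative Mycn rose from 0.132 ± 0.182 CPM to 10.5 ± 1.97 CPM in YAP_OE (adjusted p = 0.0053). Over these libraries the 73 core ribosomal protein genes tested had median changes of 0.06 and −0.03. In the reduced set their medians were 0.03 in LATS_KO (42 of 73 positive) and 0.17 in YAP_OE (60 of 73). The medians over all genes were 0.07 and 0.08 there. Of the mTOR and TOP mRNA list of 17, 2 were higher and 0 lower in LATS_KO and 2 higher and 2 lower in YAP_OE, with medians of 0.05 and −0.07. With the 13 libraries, 1 was higher and 1 lower in LATS_KO, where Mycn no longer passed (adjusted p = 0.079), and 2 were higher and 7 lower in YAP_OE, against 27.2% and 21.2% of all genes. Deptor, an inhibitor of mTOR, was lower there (288 ± 39.7 against 147 ± 21.8 CPM, adjusted p = 0.017).

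In the other lists of the translation apparatus few genes were called. Of 13 elongation factors and other TOP mRNAs, 0 were called in LATS_KO and 2 were higher in YAP_OE: Npm1, a nucleolar chaperone (158 ± 27.1 against 295 ± 54.3 CPM, adjusted p = 0.021), and Nap1l1, a histone chaperone (81.9 ± 25.7 against 171 ± 28.7 CPM, adjusted p = 0.046). Of 28 initiation factors, 0 were called in LATS_KO and 3 were lower in YAP_OE, Eif5 (−0.55), the cap-binding protein Eif4e (−0.66) and Eif2s3x (−0.68). Both counts lie near the shares of all genes in that comparison (17.9% higher and 10.8% lower). With the 13 libraries, 3 elongation and TOP genes were higher and 6 initiation factors lower in YAP_OE, and 1 elongation or TOP gene was higher in LATS_KO. The edgeR counts for YAP_OE against LATS_KO were 0 in all of these lists with all libraries. Without TdTomato 1 and LATS_KO 3, 3 assembly factors and 2 initiation factors were lower and the mTOR list had 1 higher and 3 lower, where 5.56% of all genes were higher and 7.17% lower.

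Proteins of the mitochondrial ribosome are encoded in the nucleus by Mrpl and Mrps genes. Their medians lay below those of the cytosolic family in both groups. The counts called were the same in LATS_KO (0 higher and 1 lower) and differed in YAP_OE. Of 77 tested, 1 was lower in LATS_KO (Mrps27, not called in the reduced set) and 22 were lower in YAP_OE, with 0 higher in both, where 0.973% and 10.8% of all genes were called lower. The medians were −0.28 and −0.67, against 0.05 and −0.04 for the cytosolic family. Mrps7 was at 88.4 ± 17.5 CPM in TdTomato and 35.6 ± 6.53 CPM in YAP_OE (SD, adjusted p = 0.0047), and Mrpl38 and Mrps5 fell by 1.10 and 1.14 log2 units. In the reduced set 27 were lower and 1 higher in YAP_OE, against 21.2% and 27.2% of all genes, and 7 were lower in YAP_OE than in LATS_KO. The difference between the 2 families was not tested.

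**Figure D5:**
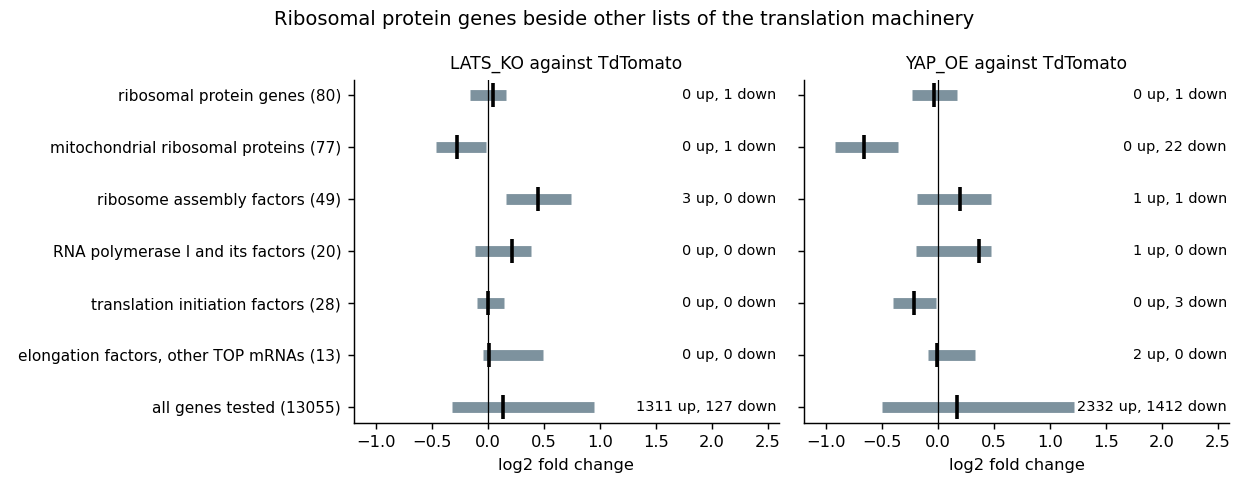
Median log2 fold change (black tick) and middle 50% of genes (bar) for the ribosomal protein genes and other lists, with the number tested in brackets and the counts called higher and lower (edgeR, adjusted p under 0.05) at the right. The cytosolic family sits at 0.05 and −0.04, the mitochondrial family at −0.28 and −0.67.

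The list of ribosome quality control and the link to p53 held 10 genes tested, of which 2 were higher in LATS_KO, and 3 were higher and 1 lower in YAP_OE (median −0.08). Trp53 rose by 0.96 in LATS_KO and 1.37 in YAP_OE (adjusted p = 0.028 and 0.0036), Cdkn1a by 3.21 and 5.23 (adjusted p = 0.032 and 0.0032), and Mdm2 by 1.29 in YAP_OE (adjusted p = 0.0089). Hbs1l, a ribosome rescue factor, fell by 0.72 there (adjusted p = 0.010). The reduced set had 4 higher and 3 lower in YAP_OE, and 2 were higher in YAP_OE than in LATS_KO. Cdkn1a in LATS_KO did not pass in the reduced set (adjusted p = 0.077). Rpl5 and Rpl11, ribosomal proteins that bind Mdm2 and were singled out after their values were seen, changed by 0.04 and 0.07 in LATS_KO and by 0.07 and −0.14 in YAP_OE, with adjusted p between 0.78 and 0.97.

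Markers of several other cell types differed between the groups. Of all genes, 10% were called higher and 0.973% lower in LATS_KO, and 17.9% and 10.8% in YAP_OE. In the reduced set, 13.7% and 27.2% were higher and 3.24% and 21.2% lower in these 2 groups. All 11 monocyte and macrophage markers were higher in both groups, with sums of 0.0774 to 9.19 CPM in TdTomato, 104 to 829 CPM in LATS_KO and 283 to 508 CPM in YAP_OE. All 10 proliferation markers were higher in both, with sums of 4.79 to 21.7, 85.3 to 660 and 106 to 347 CPM. Of the cholangiocyte markers, 5 were higher in LATS_KO and 7 in YAP_OE out of 8 tested, and Cftr was at 0 in TdTomato. All 10 Kupffer cell markers were higher in LATS_KO and 8 in YAP_OE, with sums of 3.59 to 18.8, 60.1 to 1096 and 224 to 678 CPM. Of 11 stellate cell and fibroblast markers, 4 were higher in LATS_KO and 10 in YAP_OE, with sums of 0.0774 to 11.9, 0 to 22.8 and 28.7 to 190 CPM, and Col1a1 and Acta2 were at 0 in TdTomato. Of 10 endothelial markers, 3 were higher in each group (7 and 8 in the reduced set), with sums of 31.7 to 57.4, 25.2 to 313 and 123 to 201 CPM. In LATS_KO the endothelial and the stellate cell sums overlapped those of TdTomato. Of 5 neutrophil markers tested, 2 were higher in LATS_KO and 1 in YAP_OE, and the count in YAP_OE lay near the share of all genes. The 2 T and NK cell markers tested went opposite ways. Ptprc was higher in each group. The other had log2 changes of −2.01 in LATS_KO and −2.66 in YAP_OE, and was called lower in both only in the reduced set. Of the B and plasma cell markers only Jchain was tested, which was higher in LATS_KO (2.80, adjusted p = 0.0497) and lower in YAP_OE (−3.13, adjusted p = 0.016). The erythroid gene Alas2 was lower in YAP_OE (−3.47, adjusted p = 0.013), and the erythroid sums were 133 to 156, 3.25 to 164 and 6.43 to 19.3 CPM. Of 13 hepatocyte markers tested, 1 was lower in LATS_KO and 5 in YAP_OE. The part of cell make-up in the family's level was not tested.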

How the data were processed

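The authors deposited raw counts per gene for each of 15 liver libraries, whole numbers in the layout STAR writes, with 1 unstranded and 2 stranded columns. The tools were FastQC, Trimmomatic and STAR and the build mm10, per the submitters' processing notes; versions are not given in the sources used here. The labels' extraction protocol speaks of mice with other genotypes, and nothing was taken from it on the animals. The reverse-strand counts were analysed, and 14.2% to 92.5% of the reads of a library named no gene and were left out. Per the labels' protocols the libraries were poly(A)-selected and directional.

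CPM use library sizes multiplied by TMM factors. Differences were tested with the two-sided quasi-likelihood test of edgeR 4.0.16 in R 4.3.3 (filterByExpr, robust fit, group as the only term, all 15 libraries, 12 residual degrees of freedom), with Benjamini-Hochberg adjustment over 13055 genes and a threshold of 0.05. The SE was taken as the size of the change over the root of F. Alternatives used DESeq2 1.42.0 and voom with quality weights of limma 3.58.1. The procedure was tested on simulated counts. Every pair of replicates differed by more than counting noise (smallest chi-square per degree of freedom 26.3).

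Coordinates are from GENCODE M21 (GRCm38, also called mm10) and start regions from RefSeq (GRCm38.p6). Lengths are of the shortest principal transcript. Members named were the stalk proteins, detected paralogs with their core partner, members past the threshold, in each comparison the 2 members with the largest rise and the 2 with the largest fall, and the 5 highest and lowest per kilobase, and in other lists up to 3 genes with the smallest adjusted p. Further members were named after their values were seen. The members and lists were chosen with earlier results of these data known. Some items are not reported here.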

Additional observations from a re-analysis of the deposited data

Results flagged for a closer look

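A library was picked out where its gap to the nearest other library of its group passed Dixon's 95% critical value. This was asked of the family share and of the 27 named genes in each of the 3 groups, 84 tests in all, of which 16 passed; chance gives about 1 in 20. All 16 were high values, and the genes are not independent, since they share the libraries.

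In LATS_KO 3 the family share was 4.63% against 1.97% in the next LATS_KO library, Rpl36a stood at 307 CPM against 133, Rpl37a at 807 against 331, Rplp2 at 424 against 242 and Rps20 at 543 against 289. In TdTomato 1, Rpl34 stood at 11.2 CPM against 0.953. Both libraries had most of their reads unmapped.

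In YAP_OE 5, Rpl13a stood at 462 CPM, Rpl22 at 209, Rpl36al at 160, Rpl37 at 192, Rpl37a at 358, Rpl37rt at 3.88, Rpl7 at 590, Rplp1 at 910, Rps19 at 255 and Rps29 at 336 CPM. Among all 80 members tested, the same measure picked out 36 in YAP_OE, each in YAP_OE 5, 19 in LATS_KO, in LATS_KO 3 or LATS_KO 6, and 1 in TdTomato. No cause was tested.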

How the results depend on the processing

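In LATS_KO against TdTomato, the count of 1 called member became 0 with library totals only, with no filter beyond 1 count, with only the 2 groups compared, under the replicate block (Rpl7l1 −0.68, adjusted p = 0.051) and with family scaling in both sets of libraries, and 4 with voom; leaving out 1 library gave 0 to 1. In YAP_OE against TdTomato, the count of 1 became 8 with library totals only, 2 with DESeq2, 11 with voom, 2 in the reduced set and 5 with family scaling in the reduced set; leaving out 1 library gave 1 to 2. With family scaling on all libraries the count stayed at 1, but the member was Rpl36al and not Rpl7l1. In YAP_OE against LATS_KO, voom gave 9 in place of 0. The cause of these shifts was not tested. Rpl34 reversed in LATS_KO with voom (1.40, adjusted p = 0.021). The YAP_OE share rose from 2.25% to 3.01% without the 10 most abundant genes of each library, a smaller denominator. Leaving out 1 library moved the share between 1.37% and 1.88% in TdTomato and between 1.66% and 2.33% in LATS_KO. Of 2349 other recomputed values, 2277 kept their direction and side of the threshold or stayed close to their main value. Over the whole table, the alternatives called between 1 (only the 2 groups compared) and 3504 genes (voom) in LATS_KO against TdTomato, where the main count was 1438, between 2284 (family scaling) and 8872 (voom) in YAP_OE against TdTomato, where it was 3744, and between 13 (replicate block) and 7325 (voom) in YAP_OE against LATS_KO, where it was 129. The reduced set was planned with earlier results known, and family scaling, which takes the summed core genes as library size, was added after the data were seen.

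Same-numbered libraries of different groups deviated together no more than others (mean correlation 0.0107 over 13 pairs, −0.249 to 0.232), and 2 of 15 libraries correlated best with their own number, so the numbers were not taken as pairs. The replicate block called 1 member in YAP_OE against TdTomato and 0 in YAP_OE against LATS_KO. Depth limits Rpl34 and Rpl37rt, with 408 and 804 counts in all.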
